A study of Rattus norvegicus with 132 samples.

Results

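Glomeruli of uninjured rat kidney were compared with the surrounding cortex, using 9 regions of interest (ROIs) of each kind from the Sham group. They were found by sample title, as the Sham ROIs marked glomeruli and the Sham ROIs marked cortex, and make up 18 of the 132 ROIs of the series. The series profiled formalin-fixed, paraffin-embedded kidney sections on the GeoMx platform, where light frees the barcodes of RNA-bound probes inside regions chosen by hand. Its 4 groups, Sham, HS, RM and RM-HS, had 3 rats each and belong to a study of kidney injury after trauma. The labels do not spell out HS or RM and give no strain, age, sex or time after injury for the Sham animals. What the sham procedure consisted of is likewise not given in the sources used here. The corticomedullary junction and the medulla of the Sham group, with 9 ROIs each, served as further reference areas. Glomeruli and cortex of the other groups were used once, to set the Sham difference beside theirs.

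A glomerulus is the filtering unit of the kidney, a tuft of capillaries whose endothelium, basement membrane and podocytes form a barrier that retains cells and large proteins. Podocytes are epithelial cells whose interlocking foot processes are bridged by the slit diaphragm, and mesangial cells hold the capillary loops together. Cortex outside the glomeruli consists mostly of proximal tubule, which reclaims glucose, amino acids, phosphate and organic anions from the filtrate, together with distal convoluted tubule, thick ascending limb and cortical collecting duct. An ROI is a small piece of tissue, not a cell: a glomerular ROI can hold some tubule and a cortical ROI some glomerulus. In such mixtures fewer cells of a type and less RNA per cell cannot be told apart.

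Values are signal that had been scaled so that each ROI has the same upper quartile, and differences are given as glomeruli minus cortex on the scale of log2(signal + 1), with the standard error (SE). Glomerular ROIs held few reads: 17894 to 130262, with a median of 79136, against 191538 to 873695 and a median of 526350 in cortex. The 3 glomerular ROIs of the third run of wells had 17894 to 41933 reads, so that 1 read was worth 11.6 to 29.1 signal units there and 14.6% to 62.7% of genes stood at a single read. No gene stood below 1 read in any glomerular ROI, so 1 read may also stand for an undetected gene. The negative probe was at 1.06 to 1.54 reads in these 3 ROIs. Between pairs of glomerular ROIs the log2 values correlated at 0.33 to 0.60, and between pairs of cortical ROIs at 0.67 to 0.88. The probes were designed for mouse and were hybridised to rat tissue, and no level is compared between genes. Which rat an ROI came from is not in the labels. With 9 ROIs per area from 3 rats some share an animal, so p-values over ROIs are too small throughout.

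Podocyte and other glomerular transcripts stood above cortex, among them Sema3g at 11.1-fold and Nes at 2.97-fold, while transcripts of the proximal tubule stood below it, led by Pck1 at 6.55-fold lower. These folds are on the log2(signal + 1) scale, which understates the change of low genes. Of 9271 genes, 5554 are described, those over 2 times the negative-probe value in at least 5 of the 9 ROIs of either side. Among them 557 passed an adjusted p of 0.05 (10% of those described; limma with Benjamini-Hochberg adjustment over all 9271 genes), 96 higher in glomeruli (1.73%) and 461 lower (8.30%). Over all genes measured, 1116 passed (12.0%), 96 higher (1.04%) and 1020 lower (11%). The 559 called genes that did not meet the negative-probe criterion were all lower in glomeruli. Of the 96 higher genes 56 met it in glomeruli only, the side where they are high. Of the 461 lower genes 100 met it in cortex only.

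The split of the calls by direction depended on the scaling and the model. The median difference over all genes was -0.28, and -0.17 over the described genes, so a gene at 0 lay above the typical gene. A count model on the recovered reads (edgeR) called 541 described genes, 387 higher and 154 lower, with a median of 0.02 over all genes. DESeq2 on the same reads called 568, of which 437 were higher. Quantile normalization gave 254 higher and 420 lower, also with a median of 0.02, and centring on the median 98 and 130. Directions below are those of the main setting, and the edgeR counts stand beside the lists, to be read against the 4.19% of all genes that edgeR called higher and the 2.39% it called lower. At an unadjusted p under 0.05 limma had 2.0% of all genes higher and 27.8% lower. Under the main setting and 7 alternatives together, 48 higher genes (0.864%) and 97 lower genes (1.75%) were called in the same direction; these were quantile normalization, subtraction of the negative probe, a pseudocount of 5, weights per area, 1 mean per well run, edgeR and DESeq2. No gene of the 557 changed sign under any alternative. Some alternatives, such as weights per area and 1 mean per well run, left the estimates as they were and could not change a sign. The others used the same glomerular and cortical ROIs again, so this is not independent evidence. Without the second well run 190 genes were called, without the first 293 and without the third 368. Of the 66 called genes chosen for naming 32 lost their call without at least 1 run, 17 of them without the first, 31 without the second and 14 without the third.

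**Figure D1:**
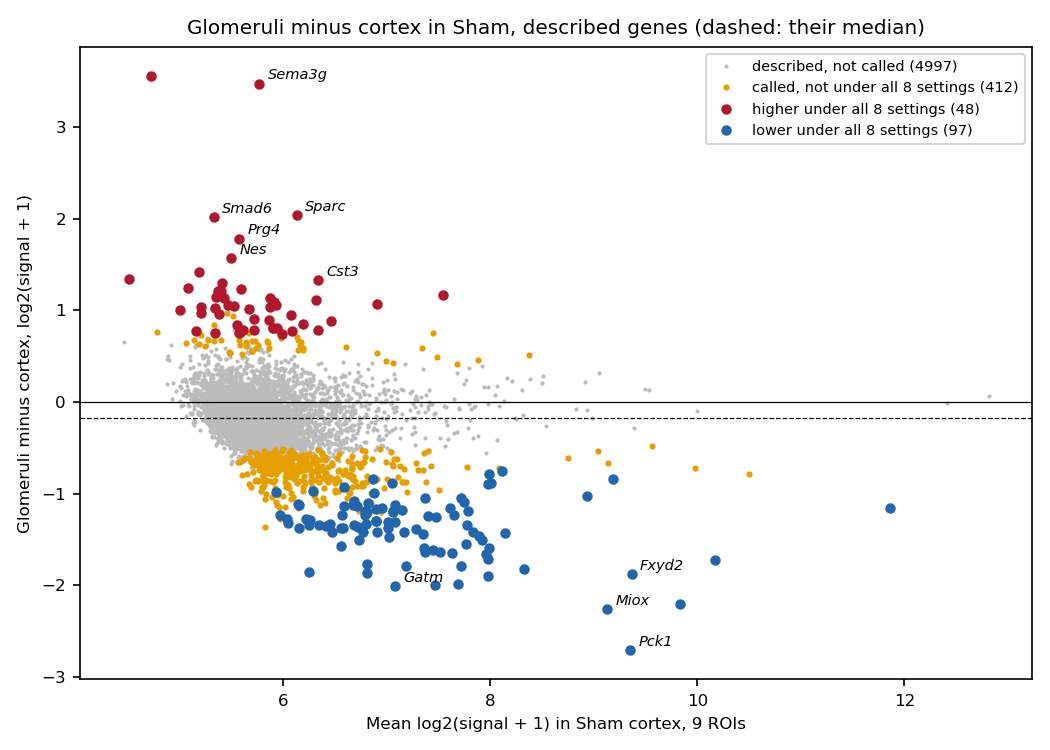
Each point is one of the 5554 described genes, placed by its mean log2(signal + 1) over the 9 cortical ROIs of Sham (horizontal) and its difference, glomeruli minus cortex, on the same log2 scale (vertical). The 48 red genes and 97 blue genes were called under the main setting and all 7 alternatives, the orange genes under the main setting but not under all of them, and the dashed line is the median of -0.17.

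Podocyte genes made up 11 of the 96 higher genes. Of 29 measured members of the podocyte list 11 were higher in glomeruli and 1, Pla2r1, was lower (adjusted p = 0.009), against 1.04% and 11% of all genes. By edgeR 17 were higher and none lower, against 4.19% and 2.39%. The list's median difference was 0.36, beside -0.28 for all genes, and the summed signal of the list ran from 1733 to 3838 in glomeruli and from 1262 to 1489 in cortex. Pla2r1 was not over the negative-probe criterion on either side. Of the 11 higher genes 10 were also called under all 7 alternatives; the other was Wt1.

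Nes, the intermediate filament protein nestin that mature podocytes keep, had a lowest, median and highest signal of 93.1, 136 and 244 in glomeruli and of 30.5, 47.0 and 55.8 in cortex. Its difference was 1.57 ± 0.18 (SE; adjusted p = 2.8e-07). Cdkn1c, a cyclin-dependent kinase inhibitor of non-dividing podocytes, had 76.3, 87.2 and 291 in glomeruli against 27.7, 45.3 and 51.7 in cortex. All 9 glomerular ROIs lay over the highest cortical ROI for each gene, as for 24 described genes in all (0.432%). Nes and Cdkn1c passed the negative-probe criterion in glomeruli only, as did 15 of these 24, so they are described through the side where they are high. Their differences were 2.05 and 2.01 in the third run. Without it Nes was at 1.33 and Cdkn1c at 0.95, both still called. Clic5, a chloride intracellular channel protein that binds the cortical cytoskeleton of foot processes, was less even: 6 of 9 glomerular ROIs exceeded the highest cortical ROI, and the glomerular range of 8.31 to 233 rested on 1 to 20 reads. Its difference was 1.34 ± 0.41 (SE; adjusted p = 0.030). It was 0.81 without the third well run (adjusted p = 0.19), 1.60 without the second (0.097) and 1.62 without the first (0.053).

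Further podocyte genes called were Ptpro (1.15), a receptor phosphatase of the foot process, Ddn (1.14), Synpo (1.01), the actin-associated synaptopodin, the transcription factors Lmx1b (0.97) and Wt1 (0.64), and Robo2 (0.96), a receptor for Slit ligands. Ptpro was uneven across runs, with -0.07 in the first, 1.28 in the second and 2.24 in the third. Robo2 was uneven too, at 0.22, 1.20 and 1.46, and 2 glomerular ROIs lay under its lowest cortical ROI. Wt1 passed narrowly, with an adjusted p of 0.040. Several textbook podocyte genes did not pass: Podxl, the podocalyxin of the foot process surface, was at -0.41 (adjusted p = 0.12), Actn4 at 0.12, Arhgap24 at 0.36 and Vegfa, the endothelial growth factor that podocytes secrete, at 0.59 (adjusted p = 0.058). Col4a3 stood at 0.44 and Col4a4 at -0.36, a pair of chains of the glomerular basement membrane collagen of which neither was called.

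**Figure D2:**
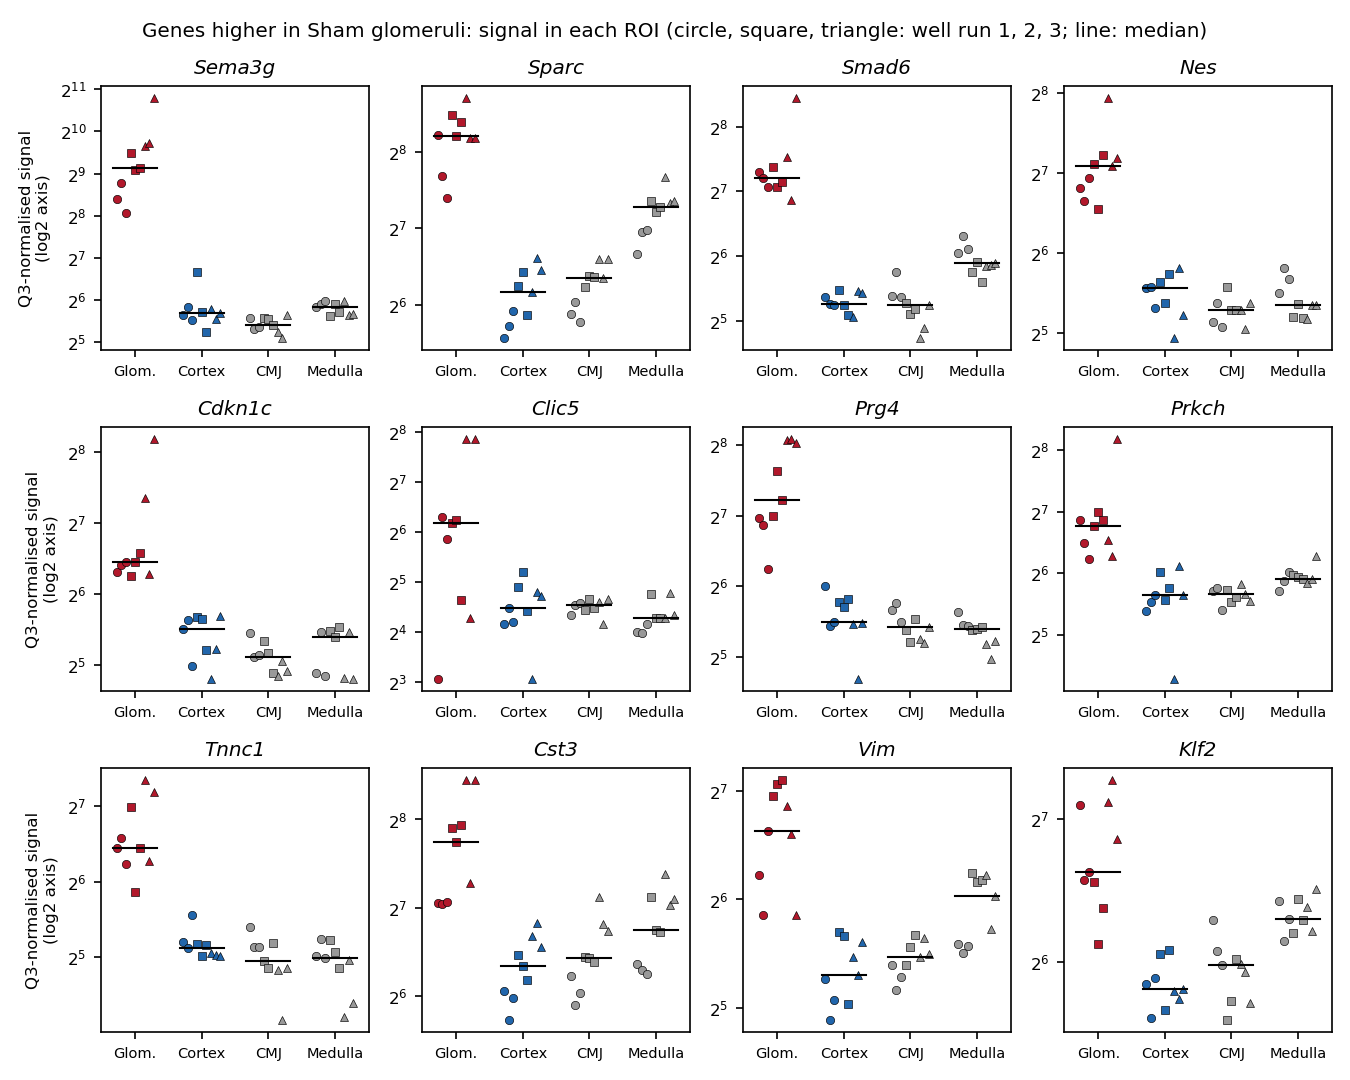
Signal (vertical, log2 axis, scaled to a common upper quartile) in each of 9 Sham ROIs of glomeruli (red), cortex (blue), corticomedullary junction and medulla (grey) for 12 genes higher in glomeruli; symbols mark the well run and lines the median. Sema3g, Sparc and Smad6 show no overlap between glomeruli and cortex, while the lower glomerular values of Clic5 lie at the level of cortex.

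Sema3g and Smad6, which mark these ROIs together with Sparc, belong to signalling families whose other members are given beside them. These 3 markers had been picked from earlier results of these data, so their differences describe the area and are not independent evidence for it. Nor are the called shares, given below, of the lists that hold them. Sema3g encodes a secreted class 3 semaphorin made by podocytes and by arterial endothelium, a ligand that acts through neuropilins and plexins. Its glomerular signal was 268, 565 and 1774 in the lowest, median and highest ROI, against 37.8, 51.7 and 101 in cortex. Every glomerular ROI was above every cortical one. The difference was 3.48 ± 0.21 (SE), with 2.72, 3.35 and 4.36 in the 3 well runs.

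The 250 bases upstream of the rat Sema3g start are shown because this gene carries one of the largest differences. Capitals mark the letters CANNTG, the general E-box, which reads the same on both strands. The sequence is from RefSeq, build GRCr8, and the window ends at the base before the annotated start.
Sema3g, chr16:6419775-6420024, plus strand: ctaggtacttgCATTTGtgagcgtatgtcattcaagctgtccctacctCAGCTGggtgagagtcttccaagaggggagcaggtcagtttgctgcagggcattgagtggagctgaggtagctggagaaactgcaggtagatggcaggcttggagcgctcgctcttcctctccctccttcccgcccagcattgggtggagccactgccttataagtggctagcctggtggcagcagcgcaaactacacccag
Such letters occur 2 times in this window, and in 65.2% of 27457 rat promoter windows of the same length at least once. The match is a description of the letters only.

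Among 18 measured genes of semaphorin, VEGF and angiopoietin signalling, the marker Sema3g was the only one called. The list's share of 5.56%, beside 1.04% of all genes higher and 11% lower, thus rests on a gene picked beforehand. Sema5a was at 0.50 (adjusted p = 0.100), Plxnd1, a semaphorin receptor, at 0.49, Sema3f at 0.38 and the co-receptor Nrp1 at 0.32 (adjusted p = 0.24). At an unadjusted p under 0.05, 5 genes of the list were higher and 2 lower, beside 2.0% and 27.8% of all genes. EdgeR called 6 higher, beside 4.19% of all genes. The median of the list was -0.02.

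Smad6, an inhibitory SMAD that dampens BMP receptor signalling, had a lowest, median and highest signal of 116, 148 and 349 in glomeruli. In cortex it had 33.2, 38.1 and 44.4, so the sides were separate. The difference was 2.02 ± 0.18 (SE; adjusted p = 1.3e-09), and 1.88, 1.90 and 2.27 in the 3 runs. Counting the marker Smad6, 3 of 19 measured BMP, TGF-beta and SMAD genes were higher and 1 lower, against 1.04% and 11% of all genes. Beside Smad6 the called members were Smad7, the inhibitory SMAD of TGF-beta signalling (0.62), and Id1, a direct BMP target gene (0.66), against its relative Id2 (-1.30). Smad7 lost its call without any 1 of the runs (0.45 without the third, adjusted p = 0.12), and Id1 without the second (adjusted p = 0.13) or the third (0.064). Id1 ranged from 40.7 to 87.2 in glomeruli and from 33.9 to 47.6 in cortex, with 8 glomerular ROIs over the highest cortical one. Id2 went the other way, from 29.1 to 80.0 in glomeruli and from 89.2 to 169 in cortex, with no overlap. The list's median was -0.11, and edgeR gave the same counts of 3 and 1, against 4.19% and 2.39% of all genes.

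Sparc, a collagen-binding matricellular protein, had 169, 297 and 419 in the lowest, median and highest glomerular ROI. Cortex had 47.0, 72.0 and 97.7. Its difference of 2.04 ± 0.15 (SE; adjusted p = 2.8e-11) was 2.02, 2.17 and 1.94 in the 3 runs. Sparc passed the negative-probe criterion on both sides, whereas Sema3g and Smad6 passed it in glomeruli only. Of the 2883 genes that passed in glomeruli only, 56 were called higher and 18 lower. Of the 134 that passed in cortex only, 100 were called lower and none higher. Counting the marker Sparc, 4 of 22 measured basement membrane and matrix genes were higher and 1 lower, against 1.04% and 11% of all genes. By edgeR 8 were higher and none lower, against 4.19% and 2.39%. Prg4, the lubricating proteoglycan lubricin, was at 1.78 ± 0.21 (SE), with a glomerular range of 75.6 to 271 over a cortical range of 25.6 to 64.1. The integrin chains Itgb1 (0.57) and Itga3 (0.54), which together anchor podocytes to laminin, passed narrowly. Itgb1 lost its call without the first run (adjusted p = 0.17) or the second (0.31). Col3a1, a fibrillar collagen of interstitial connective tissue, was lower at -0.63, and 6 of the 9 glomerular ROIs lay under the lowest cortical ROI. Without the first run it was at -0.47 (adjusted p = 0.21), without the second at -0.69 (0.15), and by edgeR at -0.42 (0.17). Lamb2, a laminin chain of the glomerular basement membrane, was at 0.58 (adjusted p = 0.093). Col4a1, a widely made basement membrane collagen, was not called (adjusted p = 0.99), with 0.91, 0.66 and -1.58 in the 3 runs.

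Of 19 measured endothelial genes 3 were higher and 1 was lower, against 1.04% and 11% of all genes, with a median of 0.04. By edgeR 9 were higher and none lower, against 4.19% and 2.39%. Nos3, the endothelial nitric oxide synthase, was at 0.75 ± 0.20 (SE; adjusted p = 0.016), with 0.25, 0.61 and 1.40 in the 3 runs. It fell to 0.43 without the third run (adjusted p = 0.18) and was 0.82 without the second (0.11). Its signal was 33.2, 91.4 and 145 in the lowest, median and highest glomerular ROI against 38.8, 50.5 and 60.4 in cortex, with 1 glomerular ROI under the lowest cortical one. Ehd3, a membrane-trafficking ATPase of glomerular endothelium, was at 0.66 with separate sides, and Cldn5, a tight junction protein of vessels, at 0.57 with 5 glomerular ROIs over the cortical range. Ehd3 lost its call without the first run (adjusted p = 0.11), and Cldn5 without the second (0.28) or the third (0.064). Ramp2, the adrenomedullin co-receptor, was lower at -0.67. Its adjusted p was 0.033, and 0.60 by edgeR, and its call was lost without any 1 of the runs (adjusted p = 0.095 to 0.16). None of the called endothelial genes was called under all 7 alternatives. Klf2, a transcription factor induced by blood flow, was measured with the vascular tone and coagulation genes, whose median was -0.10. Of these 15 genes 2 were higher, Klf2 and Nos3, which was already counted above, and 1 was lower (4 and none by edgeR). Klf2 ranged from 69.8 to 155 in glomeruli and from 48.6 to 67.9 in cortex, a difference of 0.89 ± 0.17 (SE; adjusted p = 0.00058).

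Mesangial and smooth muscle genes gave 2 calls among 14 measured, both higher, against 1.04% of all genes higher. By edgeR 3 were called, all higher, against 4.19%. The 2 were Vim, the intermediate filament vimentin, at 1.22 and Mcam, a cell adhesion molecule of vessels, at 1.13 (1.18 without the second run, adjusted p = 0.055). Vimentin is also made by podocytes and endothelium. Mesangial markers such as Itga8 (0.11), Thy1 (0.13) and Gata3 (0.29) were not called, nor was the pericyte gene Rgs5 (-0.36). Of 5 parietal epithelial genes none was called by limma or by edgeR, and 1 had an unadjusted p under 0.05: Pax8, a transcription factor of renal epithelium, at -0.71 (adjusted p = 0.052). Ren1, the renin gene of juxtaglomerular cells, was at -0.45 (adjusted p = 0.30), with 5.82 to 58.2 in glomeruli and 27.7 to 53.5 in cortex.

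Some other leading genes belong to no list of a glomerular cell type. Tnnc1, the troponin C of slow muscle and heart, had a glomerular range of 58.2 to 163 and a cortical range of 32.3 to 46.9. Cst3, the secreted protease inhibitor cystatin C, had 132 to 349 against 52.9 to 114, and a difference of 1.33 ± 0.16 (SE). Slc44a2, a choline transporter, was at 1.25 and Prkch, a protein kinase C isoform, at 1.23. All 9 glomerular ROIs exceeded the cortical range for each of these. Tnnc1, Slc44a2 and Prkch passed the negative-probe criterion in glomeruli only, and Cst3 on both sides. The differences of Tnnc1 (1.87), Slc44a2 (1.81) and Prkch (1.62) were largest in the third run. Without that run Tnnc1 was at 1.20, Slc44a2 at 0.97, Prkch at 1.03 and Cst3 at 1.32, all still called.

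Proximal tubule genes had the most lower calls of the lists. Of 33 measured members 27 were lower and none was higher, against 11% and 1.04% of all genes, and the list's median was -1.19. At an unadjusted p under 0.05, 30 were lower and none higher, beside 27.8% and 2.0% of all genes. EdgeR called 21 lower and none higher, beside 2.39% and 4.19%. The summed signal of the list ran from 1725 to 2904 in glomeruli and from 3863 to 13706 in cortex, so glomerular ROIs held less of it but were not without it. Of the 24 called members that are described, 16 were called under all 7 alternatives.

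Pck1, the rate-limiting enzyme of gluconeogenesis, had 58.2, 87.2 and 262 in the lowest, median and highest glomerular ROI. Cortex had 339, 504 and 1637. Its difference was -2.71 ± 0.22 (SE; adjusted p = 1.15e-10), and every glomerular ROI was under every cortical one, as for 52 described genes in all (0.936%). The reads behind the glomerular values were 3 to 32. Miox, the kidney enzyme that opens the ring of myo-inositol, ranged from 69.8 to 291 in glomeruli and from 317 to 1124 in cortex, with a difference of -2.26 ± 0.21 (SE). Gatm, which makes the creatine precursor, was at -2.01 and the glucose-6-phosphatase gene G6pc at -1.90. In the third run their glomerular values rested on 1 to 4 and on 1 to 6 reads. Without that run Gatm was at -1.80 and G6pc at -1.49, both still called. The basolateral organic anion transporter Slc22a8 was at -2.0, but its difference was -0.99 and -1.41 in the first 2 runs and -3.59 in the third, where its glomerular values rested on 1 or 2 reads.

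Other transporters were lower as well: the phosphate carrier Slc34a1 (-1.71), the glucose carrier Slc5a2 (-1.42), the bicarbonate carrier Slc4a4 (-1.43), the organic anion transporter Slc22a6 (-1.48), the amino acid transporter subunit Slc3a1 (-1.55) and the water channel Aqp1 (-1.60). The transcription factor Hnf4a, which maintains proximal tubule identity, was at -1.36. Members that did not pass included Slc2a2 (-0.39), Slc7a7 (-0.44) and Slc37a4 (-0.28). Further differences lay outside the list. The detoxifying enzymes Gsta3 (-1.87) and Glyat (-1.86) and the amino acid oxidase Dao (-1.83) were lower, as was Ivns1abp (-1.79). In the third run each glomerular value of Glyat was a single read. Those of Ivns1abp rested on 1 to 2 reads, of Gsta3 on 1 to 3 and of Dao on 6 to 12. Without that run Gsta3 was at -1.65, Glyat at -1.52, Ivns1abp at -1.41 and Dao at -1.95, all still called. Fxyd2, the gamma subunit of the sodium pump, had 95.2, 166 and 669 in glomeruli against 363, 647 and 1183 in cortex, with 8 of 9 glomerular ROIs under the cortical range.

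Upstream windows of 3 of these genes are shown because they share a short sequence. Promoters were at hand for 7 of the 10 genes named for their large negative differences and for 7 of the 11 named for large positive ones. Capitals mark GTTAAT on either strand, the half-site core of the HNF1 motif, and CANNTG.
Pck1, chr3:182348322-182348571, plus strand: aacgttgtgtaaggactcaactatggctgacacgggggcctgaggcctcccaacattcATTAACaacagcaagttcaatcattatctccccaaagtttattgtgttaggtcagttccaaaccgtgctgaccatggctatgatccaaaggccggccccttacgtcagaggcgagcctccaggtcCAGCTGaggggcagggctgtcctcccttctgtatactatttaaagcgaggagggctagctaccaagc
Miox, chr7:122284410-122284659, plus strand: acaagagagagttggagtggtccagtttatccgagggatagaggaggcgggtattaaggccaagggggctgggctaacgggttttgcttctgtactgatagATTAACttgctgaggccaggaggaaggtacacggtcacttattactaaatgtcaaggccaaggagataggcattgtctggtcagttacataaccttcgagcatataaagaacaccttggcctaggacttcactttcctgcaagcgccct
Slc22a8, chr1:214927034-214927283, plus strand: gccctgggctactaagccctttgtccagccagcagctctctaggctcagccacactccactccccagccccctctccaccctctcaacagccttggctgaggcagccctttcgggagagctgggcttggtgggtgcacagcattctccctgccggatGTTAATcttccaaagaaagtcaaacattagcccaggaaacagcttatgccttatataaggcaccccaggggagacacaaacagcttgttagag
GTTAAT occurred in 4 of the 7 lower promoters, the last being Gsta3, in 1 of the 7 higher ones (Prg4) and in 6.46% of all 27457 windows. It was found in 10 of 79 promoters of genes lower under the main setting and all 7 alternatives (12.7%), in 2 of 32 of the higher ones (6.25%) and in 4.17% of those of described genes. CANNTG occurred in 4 of 7 on each side. TAATTA (4.94% of all windows), GGCGCC (9.24%) and CAAAGTCCA (0.331%) were in none of the 14. The 5 motifs were picked by hand with the differences known, and no test was made.

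**Figure D3:**
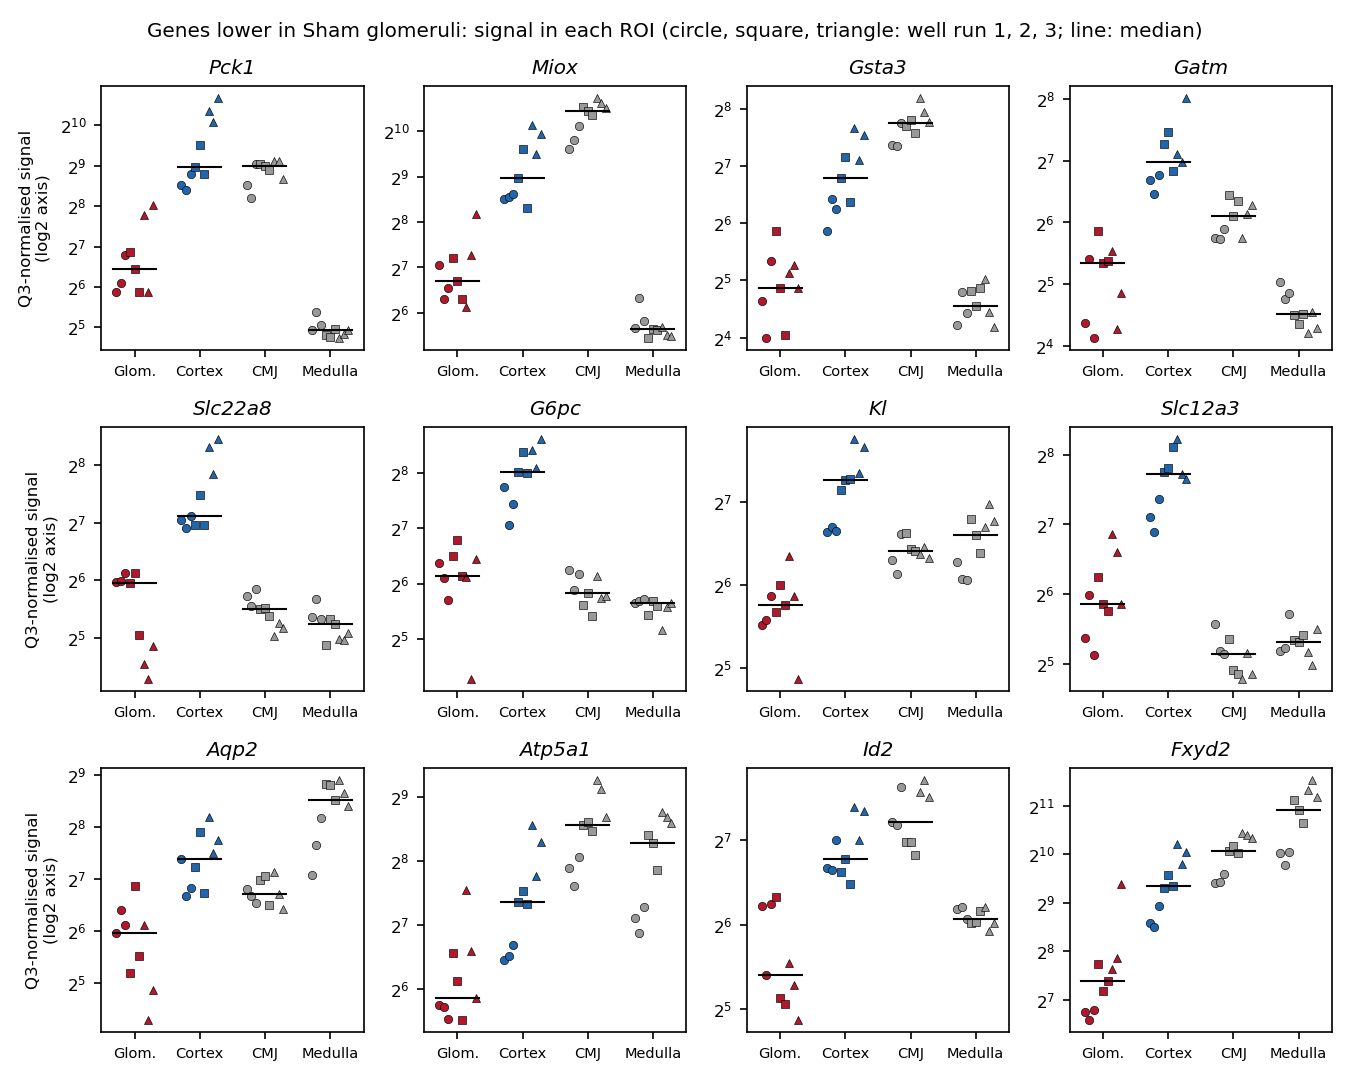
Signal (vertical, log2 axis, scaled to a common upper quartile) in each of 9 Sham ROIs of glomeruli (red), cortex (blue), corticomedullary junction and medulla (grey) for 12 genes lower in glomeruli than in cortex; symbols mark the well run and lines the median. By their medians Pck1 and Miox were lowest in the medulla, with glomeruli between medulla and cortex.

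Genes of the later tubule segments were lower in glomeruli too. For the thick ascending limb 5 of 10 measured genes were lower, for the distal convoluted tubule 5 of 6 and for the collecting duct 5 of 8, with none higher in any of them, against 11% of all genes lower and 1.04% higher. By edgeR 3, 3 and 1 were lower and none higher, beside 2.39% and 4.19% of all genes. At an unadjusted p under 0.05, 7, 6 and 6 were lower and none higher, beside 27.8% and 2.0%. Egf, made by the thick ascending limb and distal convoluted tubule, was at -1.19 and Kcnj1, a potassium channel, at -1.13 (-0.86 without the second run, adjusted p = 0.092). Slc12a3, the thiazide-sensitive cotransporter of the distal convoluted tubule, had 34.9, 58.2 and 116 in glomeruli against 118, 212 and 299 in cortex, a difference of -1.64 ± 0.17 (SE). Kl, the co-receptor klotho, was at -1.42 and also without overlap. The vasopressin-regulated water channel Aqp2 was at -1.63, with -0.79 in the first run and -2.69 in the third.

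Metabolic genes were lower in glomeruli as well. Of 20 measured genes of mitochondrial electron transport 13 were lower (median -0.88) and of 14 fatty acid oxidation genes 8 were lower (median -0.75), none higher in either, against 11% of all genes lower. By edgeR 9 and 3 were lower and none higher, beside 2.39% and 4.19% of all genes. At an unadjusted p under 0.05, 17 and 13 were lower and none higher, beside 27.8% and 2.0%. Examples are the complex III subunit Uqcrc2 (-1.35, and -0.77 without the third run), the ATP synthase subunit Atp5a1 (-1.24), the succinate dehydrogenase subunits Sdhb (-1.19) and Sdhd (-1.20, and -0.76 without the third run), and Acat1 (-1.38), a mitochondrial thiolase of ketone and isoleucine breakdown. Atp5a1 ranged from 45.7 to 186 in glomeruli and from 88.1 to 379 in cortex, with 6 glomerular ROIs under the cortical range. The summed signal of the proximal tubule list, given above, was lower in the same ROIs, and its part in these differences was not tested.

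The small lists here are to be read against 1.04% of all genes higher and 11% lower (4.19% and 2.39% by edgeR). At an unadjusted p under 0.05 limma had 2.0% of all genes higher and 27.8% lower. Of 17 immediate early genes 2 were higher and none was lower, and by edgeR 6 were higher and none lower. The 2 were the MAP kinase phosphatase Dusp1 (0.78) and Fosl2 (0.74), and Egr1 (-0.33) and Fosb (0.05) were not called. Dusp1 lost its call without the second run (0.74, adjusted p = 0.13), and Fosl2 without the first (0.68, 0.14) or the second (0.51, 0.28). Of 9 heat shock genes 2 were lower, among them the mitochondrial chaperonin Hspe1 (-0.98; -0.84 without the second run, adjusted p = 0.066), and edgeR called 1 higher and 1 lower. Of 10 tubular injury genes 2 were higher, by limma as by edgeR: Vim, named above, and Spp1, the matrix phosphoprotein osteopontin, with 64.0 to 291 in glomeruli and 41.5 to 119 in cortex. Of 6 leukocyte genes 1 was lower and none was higher (3 and none at an unadjusted p under 0.05, none either way by edgeR); Cd74, an antigen presentation chaperone, was at -0.59 (adjusted p = 0.0895) and Cd3e, a T cell receptor subunit, at -0.19. Of 5 complement genes 2 were lower (3 at an unadjusted p under 0.05, and none by edgeR), and C3 was at -0.43 (adjusted p = 0.18). The haemoglobin gene Hba-a1, a measure of red cells in the tissue, ranged widely, from 116 to 3553 in glomeruli and from 496 to 1200 in cortex, with a difference of 0.14 (adjusted p = 0.80). It was 1.20 in the second well run and -1.19 in the third. By edgeR it was called higher, at 0.85 (adjusted p = 0.0046).

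Lists of ribosomal protein, olfactory and vomeronasal receptor and housekeeping genes were added for comparison. They were not chosen as markers of a glomerular cell. Of 75 ribosomal protein genes 1 was higher (Rpl35a, 0.51) and 4 were lower (5.33%), among them Rps20 (-0.78), Rpl13 (-0.64) and Rpl41 (-0.49). By edgeR 12 of the 75 were higher and none lower, beside 4.19% and 2.39% of all genes. A raised share of higher calls by edgeR was thus not confined to lists of glomerular cell types. Rps20, Rpl13 and Rpl41 were at -0.29, -0.34 and -0.19 by edgeR, and these 3 were not called. Each of the 3 lost its call without the third run (adjusted p = 0.18, 0.085 and 0.057), Rpl13 and Rpl41 also without either other run and Rps20 without the second (0.14), and Rpl35a without the first (0.071) or the second (0.11). Of 252 olfactory and vomeronasal receptor genes 26 were lower (10.3%, beside 11% of all genes) and none was higher. Their median was -0.26 beside -0.28, so the list lay at the level of all genes. Examples are Vmn1r189 (-0.87), Olfr197 (-0.86), Olfr165 (-0.81) and Olfr299 (-0.80). By edgeR 4 were higher and 1, Olfr197, was lower, and the named genes were negative there as well, from -0.61 to -0.44. Without the second run Olfr197 (adjusted p = 0.093), Olfr165 (0.092) and Olfr299 (0.0501) lost their calls, as did Olfr165 (0.14) and Olfr299 (0.054) without the first. The negative probe itself had a median of 17.3 in glomeruli and 27.6 in cortex. Its part in these differences was not tested. Among 9 housekeeping genes Actb was higher at 0.46 and 4 were lower (44.4%), Pgk1 among them at -0.62. Over all genes 1.04% were higher and 11% lower. By edgeR 2 housekeeping genes were higher and none lower. Without the first or the second run Actb (adjusted p = 0.22 and 0.19) and Pgk1 (0.075 and 0.16) lost their calls.

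**Figure D4:**
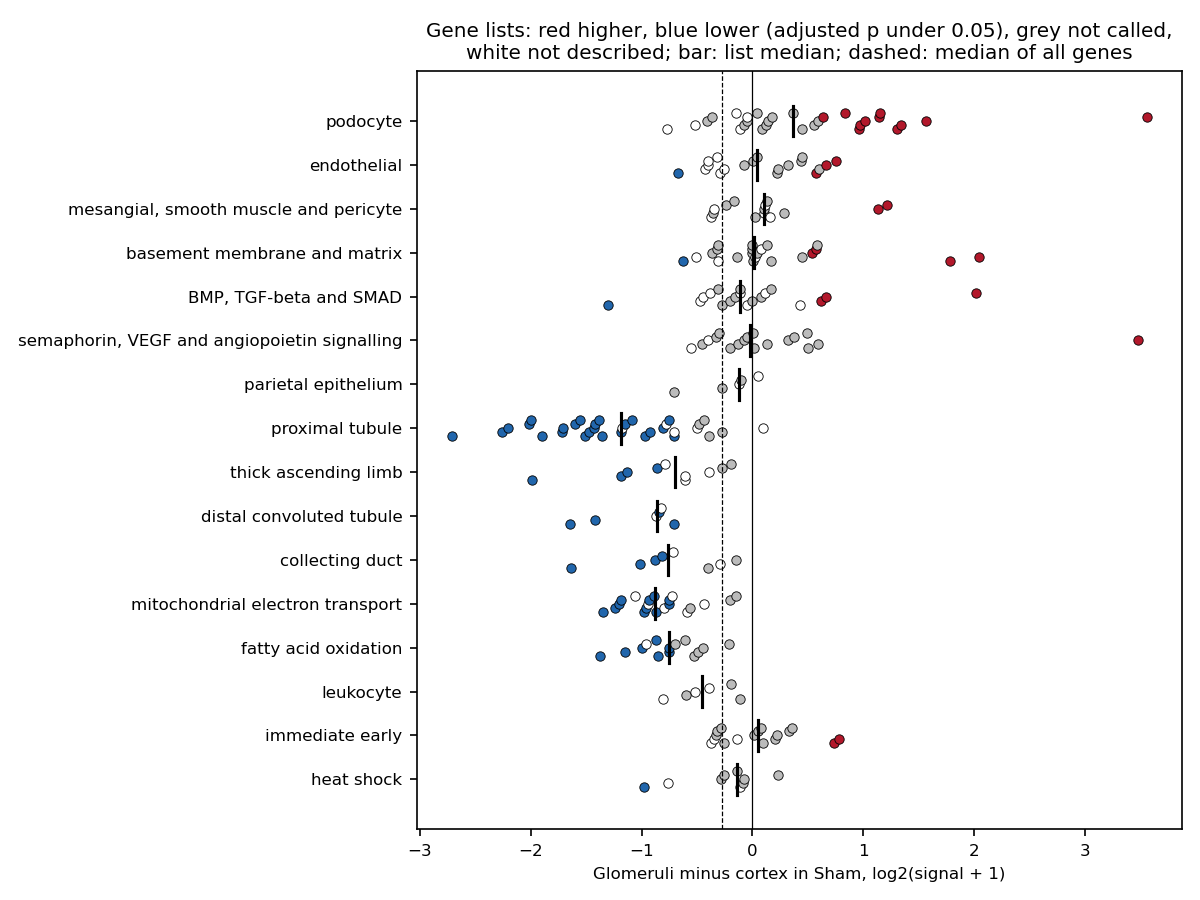
Each point is a measured gene of 1 of 16 lists, placed by its difference, glomeruli minus cortex, on the log2(signal + 1) scale in Sham; red and blue points passed an adjusted p of 0.05, grey points did not and white points were not described. Bars are list medians and the dashed line is the median of all genes, -0.28: the podocyte bar lies at 0.36 and the proximal tubule bar at -1.19.

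The other Sham areas place these genes within the kidney. These comparisons share the glomerular ROIs with the one above, so only the values are set side by side. Against the junction 211 described genes were higher in glomeruli (3.80%) and 1442 lower (26.0%), and against the medulla 134 were higher (2.41%) and 1241 lower (22.3%). Sema3g had a median of 42.1 in the junction and 56.6 in the medulla, so its highest median was in glomeruli. The medulla ROIs of Sparc, at 101 to 204, all lay above its highest cortical ROI, and the glomeruli exceeded the medulla by 0.96 beside 2.04 over cortex. For Smad6 the medulla ROIs, at 48.5 to 79.1, were likewise above the cortical range, and glomeruli exceeded medulla by 1.40.

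Tubule genes had several orders over the areas. Pck1 had a median of 511 in the junction and 30.4 in the medulla, and glomeruli differed by -2.21 from junction and by 1.66 from medulla, both past the threshold. Miox was highest in the junction, with a median of 1387, and glomeruli exceeded medulla by 1.15. Dao (1.14) was likewise higher in glomeruli than in medulla. For G6pc and Slc22a8, glomeruli and junction did not differ past the threshold (adjusted p = 0.52 and 0.98), with junction medians of 56.9 and 45.5. Slc12a3 had medians of 35.2 in the junction and 39.8 in the medulla, and glomeruli stood above them by 0.85 and 0.63 while below cortex. Its signal in glomeruli thus lay between that of cortex and those of the deeper areas. Aqp2 and Kcnj1 were highest in the medulla, with medians of 368 and 336.

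The same difference was then set beside that in RM, HS and RM-HS, whose ROIs were not part of the main setting. These had 8, 5 and 6 glomerular ROIs and 9 cortical ROIs each; 1 further RM glomerular ROI, alone on its plate, was left out. Of the 96 genes higher in Sham glomeruli 89 were higher in all 3 other groups (92.7%), against 11.2% of described genes, and of the 461 lower genes 392 were lower in all 3 (85.0%), against 47.8%. Sema3g was at 4.31 in RM, 3.94 in HS and 3.88 in RM-HS, and Pck1 at -2.55, -2.78 and -2.71. Smad6 was at 1.49, 1.12 and 1.14 beside 2.02 in Sham, a difference between groups that did not pass (F test of limma, adjusted p = 0.085).

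Over the 4 groups 109 described genes passed that F test (1.96%), among them Prg4, Dusp1 and the podocyte genes Ddn and Wt1 and the bicarbonate carrier Slc4a4. Prg4 had glomerular medians of 150 in Sham, 393 in RM, 361 in HS and 271 in RM-HS over cortical medians of 43.0 to 48.5. Its difference was 1.78 in Sham, 3.06 in RM, 3.02 in HS and 2.41 in RM-HS (adjusted p = 0.011). The Sham value itself varied with the run, at 1.03, 1.5 and 2.82. Dusp1 was at 0.78 in Sham, 0.36 in RM, 1.33 in HS and 0.06 in RM-HS (adjusted p = 0.003). Ddn was at 1.14 in Sham, 1.85 in RM, 2.11 in HS and 1.33 in RM-HS, and Wt1 at 0.64, 1.49, 1.62 and 0.83. Slc4a4 was at -1.43 in Sham and at -2.16, -2.32 and -2.46 in the others. All HS ROIs and the third Sham run were on one plate, and the remaining ROIs used here on another.

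**Figure D5:**
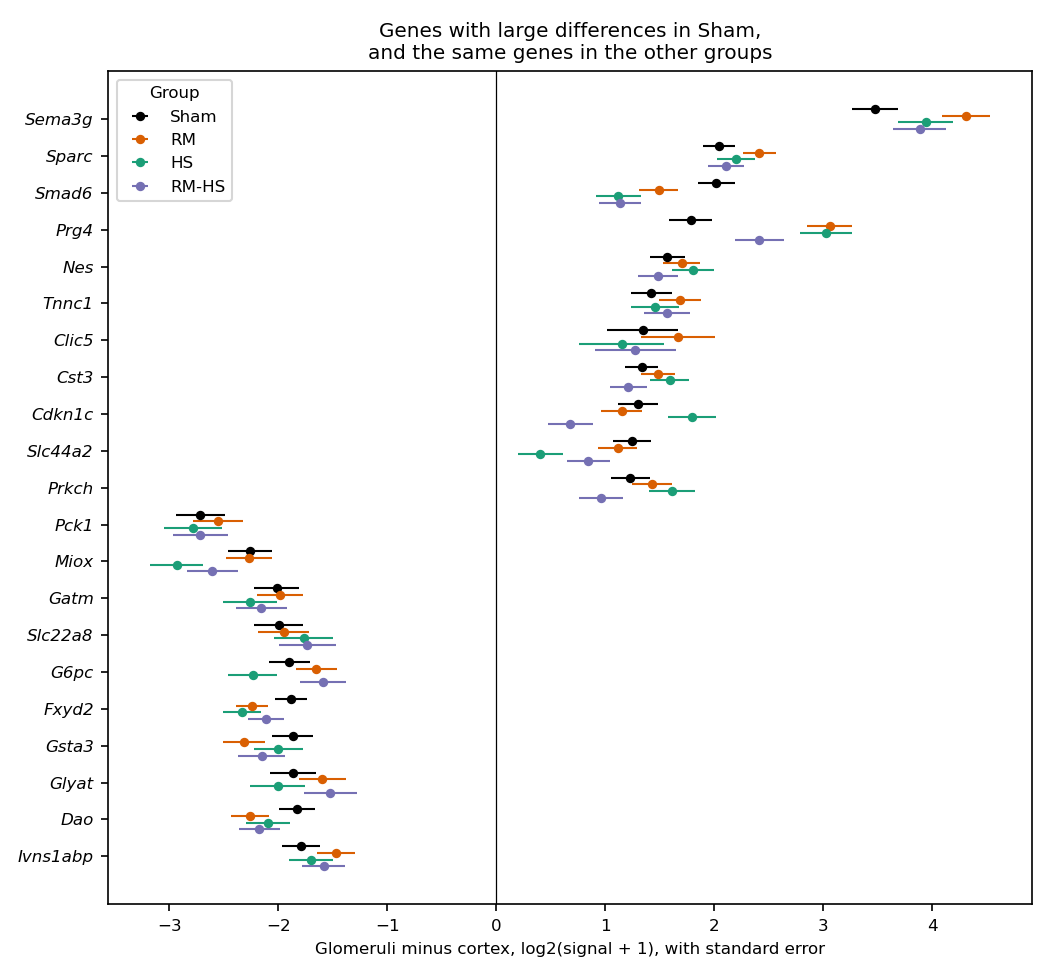
Difference, glomeruli minus cortex, on the log2(signal + 1) scale (horizontal) with its standard error for 11 genes with large positive and 10 with large negative differences in Sham, in Sham (black), RM (orange), HS (green) and RM-HS (purple). All 21 genes keep their sign in each group, and Prg4 is at 1.78 in Sham and 2.41 to 3.06 in the others.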

How the data were processed

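Hand-drawn kidney ROIs were profiled with GeoMx mouse whole-transcriptome probes and sequenced, per the labels' protocols. The deposited table holds signal for 9271 genes and a negative probe; the authors scaled each ROI to a common upper quartile, per its name and values. Builds listed in the submitters' processing notes are GRCh38 and hg38 (human), with no role stated; no source used here names the software. Whole reads were recovered from the deposited signal (tolerance 1e-04 reads). The lowest recovered value in the glomerular ROIs was 1 read, and the count models took it as it stood.

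Differences were fitted with limma 3.58.1 (R 4.3.3) on log2(signal + 1) over all genes and the 18 ROIs, with the well run (3 runs of consecutive wells, from the titles) as a fixed block, variances moderated with a trend, two-sided tests and Benjamini-Hochberg adjustment. Other Sham areas were compared over 36 ROIs, and groups by an F test with 3 degrees of freedom. Alternatives included edgeR 4.0.16 and DESeq2 1.42.0 on the recovered reads. The combination of 7 alternatives was picked after they had been run. The fit was tested on simulated data.

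Named genes were, among described genes called with 1 sign in all 3 runs, the 12 largest each way, Sema3g, Sparc and Smad6, and up to 4 of each list (with none, up to 2 with the lowest p); other list members were named after their values were seen. Members and lists were chosen with earlier results of these data known. A few genes are not reported here.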

Additional observations from a re-analysis of the deposited data

Results flagged for a closer look

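The gap between the most distant ROI and its neighbour, as a share of the range of the 9 ROIs, passed the 95% critical value of Dixon's test in 18 of 146 combinations of a named gene and an area. Chance gives about 1 in 20. Of the 10 glomerular cases 8 were ROIs of the third well run, whose ROIs had the fewest reads, and of the 8 cortical cases 5.

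In glomeruli the highest ROI stood apart for Smad6 (0.573), Nes (0.509), Prkch (0.611), Fxyd2 (0.543) and Rpl35a (0.662). The lowest stood apart for G6pc (0.566), Nos3 (0.50), Col3a1 (0.573), Slc8a1 (0.609) and Olfr197 (0.550). In cortex the highest ROI stood apart for Sema3g (0.584) and Tnnc1 (0.654). The lowest did so for Prg4 (0.571), Clic5 (0.506), Prkch (0.598), Ehd3 (0.582), Mcam (0.601) and Cd3e (0.630).

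The difference between glomeruli and cortex varied over the 4 groups for Prg4 (F test of limma, adjusted p = 0.0111) and for Dusp1 (adjusted p = 0.00304). Prg4 was higher in glomeruli in each group, with the smallest difference in Sham, and Dusp1 ranged from 0.06 in RM-HS to 1.33 in HS.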

How the results depend on the processing

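Counts are of described genes called, beside 557, 96 higher and 461 lower. Requiring the negative-probe criterion on both sides left 40 higher genes, and dropping it gave 1116 calls, 1020 of them lower. Quantile normalization gave 254 higher genes. Centring on the median gave 228 calls with 130 lower, and subtracting the negative probe 199 with 108 lower. One mean per well run gave 290 calls, 52 higher and 238 lower, with the run as a replicate block, and a model over all but 1 of the 132 ROIs gave 1691, 245 and 1446. Without the block 452 genes were called. For count models edgeR gave 387 higher and 154 lower, and DESeq2 437 higher of 568 called. Leaving out 1 well run gave 190 to 368 calls, 35 to 116 higher and 155 to 252 lower, and the third run alone gave 92, 11 and 81. Against the junction quantile normalization gave 798 higher and 933 lower, and against the medulla 391 and 809. Leaving out 1 run gave 87 to 137 higher and 826 to 1049 lower against the medulla, lowest without the second run. The cause of these shifts was not tested. Genes that were not called changed sign as follows: Ren1 with quantile normalization (0.0093), Cldn1 with edgeR (0.078) and DESeq2 (0.088), Cd3e with quantile normalization (0.22) and edgeR (0.10), and Hba-a1 on the third run alone (-1.19) and, over runs left out, from -0.39 to 0.81. The limits of the data are the few reads per glomerular ROI, the missing link from ROI to animal, mouse probes on rat RNA and the mixture of cells in each ROI.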

Other observations

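Genes called under the main setting and all 7 alternatives included several on no list, picked here after their values were seen. Higher in glomeruli were Foxc1 (1.04 ± 0.19, SE), a forkhead transcription factor, Dkk2 (1.03 ± 0.19), a secreted modulator of Wnt signalling, Efnb1 (0.91 ± 0.18), an ephrin ligand, and Fli1 (0.75 ± 0.16), an ETS transcription factor of endothelium and blood cells. Dkk2 and Fli1 were above the highest cortical ROI in 9 of 9 glomerular ROIs, Foxc1 in 8 and Efnb1 in 6. Myh9, a non-muscle myosin heavy chain, was at 1.12 ± 0.17 and Tmsb4x, an actin-binding thymosin, at 1.17 ± 0.14. Apart from Tmsb4x (0.78 there), these genes had their largest difference in the third well run, as with Myh9 (0.58, 1.03 and 1.74).

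Lower in glomeruli were Sod1 (-1.50 ± 0.20), the cytosolic superoxide dismutase, Slc6a8 (-1.79 ± 0.27), the creatine transporter, and Amn (-1.31 ± 0.23), a partner of cubilin in protein uptake. The lysosomal proteases Ctsh (-1.42 ± 0.23) and Lgmn (-1.35 ± 0.24) were lower as well, as were the actin-binding proteins Cotl1 (-1.11 ± 0.17) and Marcks (-0.84 ± 0.15). By well run Amn was at -0.62, -0.81 and -2.51, Sod1 at -0.75, -1.37 and -2.38 and Slc6a8 at -1.02, -1.58 and -2.75. Ctsh (-2.43), Lgmn (-2.22) and Cotl1 (-1.50) were also lowest in the third run, where glomerular reads were fewest, and Marcks was not (-0.70). All 9 glomerular ROIs were under the lowest cortical ROI for Sod1 and Amn, 8 for Slc6a8, Ctsh and Cotl1, 7 for Marcks and 6 for Lgmn. All of these adjusted p-values (limma) were under 0.05.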
